A study of Mus musculus with 6 samples.

Results

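Cholesterol synthesis was followed through 7 genes, Srebf2, Hmgcs1, Sqle, Idi1, Fdft1, Dhcr7 and Insig1, out of 51733 gene symbols counted in neural progenitor cells (NPCs) from control and Ybx1-KO mouse embryos. The genes were taken by name, as the main regulator of sterol synthesis and some of its known target genes, and the rows of these 7 symbols were read in each of the 6 libraries. All 7 passed the filter on low expression. The RNA came from Sox2-positive cells sorted from neural tubes at embryonic day 13.5, with 3 libraries from wildtype embryos (control 1, 2 and 3) and 3 from embryos labelled YBX1KO (Ybx1-KO 1, 2 and 3), all of strain C57BL/6. The methods of the study give the deleted allele as homozygous Ybx1 tm1Ley and the sorting reporter, carried by embryos of both groups, as Sox2-eGFP. The sort therefore kept cells by the activity of the Sox2 gene, and how many embryos went into a library is not given in the sources used here, so the spread between libraries may be in part technical. The titles of control 1 and 2 share a number, as do those of Ybx1-KO 1 and 2, and no such number occurs in both groups. What it marks is not given in the sources used here. The paper calls the controls siblings and describes its samples as compared with littermates, but does not say which libraries share a litter. If it marks a litter, the 3 libraries of a group are not all independent, and genotype and litter cannot be told apart.

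Cells make cholesterol from acetyl-CoA along a long chain of enzymes, first through mevalonate to the isoprenoids and then through squalene to the sterols. The transcription factor SREBP-2, the product of Srebf2, is held in the endoplasmic reticulum by the Insig proteins while sterol is plentiful and is released, cut and sent to the nucleus when sterol falls, where it turns on most genes of the chain. The embryonic brain makes most of its own cholesterol, because lipoproteins of the blood hardly pass into it. Ybx1, the gene deleted here, encodes a protein with a cold-shock domain that binds DNA and RNA and was named for its binding to the Y box, a promoter element with a CCAAT core.

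Counts assigned to genes numbered 20841990, 23883542 and 21574427 in control 1, 2 and 3, and in Ybx1-KO 1, 2 and 3 they numbered 8483075, 13321952 and 4743279. A gene with 3 counts stood between 0.126 and 0.632 CPM across these depths, CPM being the count scaled to a common library size, and that limit covers counting error only. Ybx1-KO 3 stood apart. In it 59.5% of the tallied read pairs fell outside genes, against 30.6% to 46.7% in the other libraries, and counts fell on 39553 genes, against 19649 to 30482. The counts over gene lists, and the genes whose values turn on that library, are therefore also given without it. CPM values below carry TMM scaling (trimmed mean of M values), with factors from 0.734 in Ybx1-KO 2 to 1.51 in Ybx1-KO 3.

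Ybx1 (chromosome 4, 119277981 to 119294604 of GRCm38) is the gene the labels give as deleted. It had 235, 523 and 301 CPM in control 1, 2 and 3 and 124, 54.5 and 9.51 CPM in Ybx1-KO 1, 2 and 3, so the groups did not overlap. Ybx1-KO 1 nevertheless held 1112 counts of Ybx1, or 124 CPM beside the 235 CPM of control 1, while Ybx1-KO 3 held 68 counts. The Ybx1 log2 fold change, Ybx1-KO over control, was -2.49 (standard error 0.675), and the quasi-likelihood test of edgeR gave an adjusted p of 0.302. In edgeR without Ybx1-KO 1 the value was -3.49 (adjusted p = 8.61e-05, or 0.0405 on the genes tested in all 6 libraries), and without Ybx1-KO 3 it was -1.99 (adjusted p = 0.0945 on those genes). Ybx1 also passed an adjusted p of 0.05 by DESeq2 (0.0236), by edgeR without the filter on low expression (0.0214) and by edgeR without Ybx1-KO 2 (0.0131, but 0.0502 on the genes tested in all 6).

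Sox2 itself, the gene behind the sort, was present in every library, from 17.2 to 49.8 CPM. The neural progenitor markers, 11 genes with Fabp7 or Vim as the most abundant, summed to 1726, 1781 and 1897 CPM in control libraries and 2395, 2206 and 1368 CPM in Ybx1-KO libraries. All libraries thus carried the markers of the labelled cell type, and none of the 11 was at 0 in any library. At an unadjusted p below 0.05 in edgeR, 5 of the 11 were higher in Ybx1-KO (Nes, Hes1, Hes5, Notch1 and Msi1), against 6.96% of all genes, and 1 was lower (Slc1a3), against 4.27%. The same 5 were higher without overlap on total-count scaling, against 5.87% of all genes, and without Ybx1-KO 3, against 10.3%. With TMM and all libraries only Nes and Hes5 were, against 4.99%. The paper names Hes5 among genes lower in Ybx1-KO, by RNA-seq and by RT-qPCR of brain NPCs, opposite to its direction here. The log2 fold change of Hes5 was 1.05 here (edgeR, adjusted p = 0.432), and the reason for the difference was not tested. The part of the progenitor markers in the values of the sterol genes was not tested. Neuron markers were also abundant, with a summed 3334, 5395 and 3711 CPM over 12 genes in control and 4563, 3827 and 1847 CPM in Ybx1-KO libraries, Ybx1-KO 3 being the lowest. In bulk RNA, fewer cells of a type and less RNA per cell cannot be told apart.

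Across the 21330 genes tested, 0% were called by edgeR (adjusted p below 0.05 with a fold above 1.5), and 0 of the 7 sterol genes were called. The smallest adjusted p among the 7 was 0.492, for Dhcr7. At an unadjusted p below 0.05, 0 of the 7 passed, while 6.96% of all genes tested passed as higher in Ybx1-KO and 4.27% as lower. By limma-voom 0 genes were called, and by DESeq2 118 genes were called higher and 96 lower, none of them among the 7. The paper, in contrast, reports genes both higher and lower in Ybx1-KO NPCs by voom at the same thresholds. The limma-voom result here thus did not reproduce those calls, and the reason for the difference was not tested. Of the 7, 3 had a positive log2 fold change (Srebf2, Dhcr7 and Hmgcs1) and 4 a negative one, against 61.3% positive among all genes. The median of the 7 was -0.18 and that of all genes 0.31. Scaled to total counts, 4 of the 7 were positive, with a median of 0.11 beside 0.51 for all genes. Without Ybx1-KO 3 the median of the 7 was -0.044 and that of all genes -0.066, again with 3 of the 7 positive, against 40.1% of all genes.

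**Figure D1:**
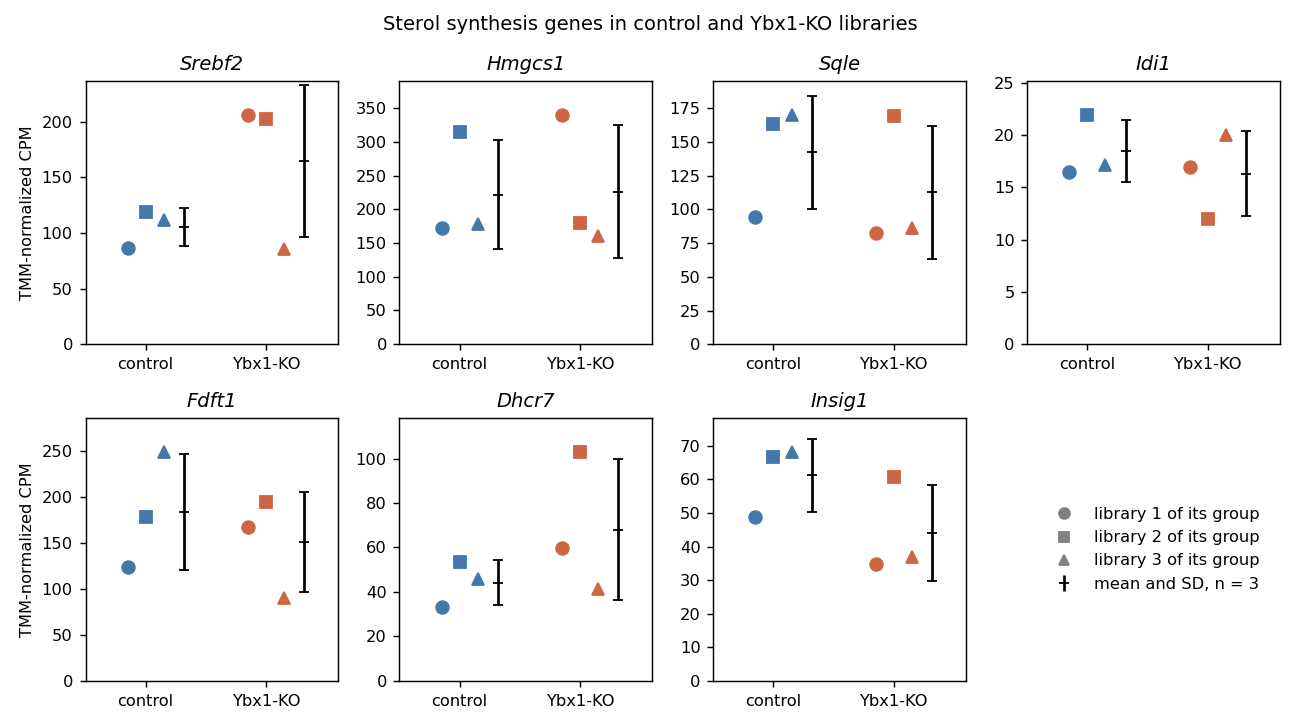
TMM-normalized CPM (vertical axes, from 0) of the 7 sterol genes in each of the 3 control and 3 Ybx1-KO libraries, with marker shapes for libraries 1, 2 and 3 of a group and black bars for the mean and SD (n = 3). Srebf2 and Dhcr7 were highest in Ybx1-KO 1 and 2 but not in Ybx1-KO 3, and in all 7 panels the groups overlapped.

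Srebf2 encodes SREBP-2 and lies on chromosome 15 (82147181 to 82205379, plus strand). It had 86.3, 119 and 111 CPM in control 1, 2 and 3. In Ybx1-KO 1, 2 and 3 it had 206, 203 and 86.0 CPM. The first pair of Ybx1-KO libraries thus stood well above every control library, while Ybx1-KO 3 matched the lowest control. Control NPCs averaged 106 ± 17.1 CPM and Ybx1-KO NPCs 165 ± 68.3 CPM (SD, n = 3 each), a log2 fold change of 0.64 with a 95% interval from -0.27 to 1.56 (edgeR, adjusted p = 0.501). A two-sided exact permutation test gave p = 0.4, where 0.1 is the smallest p that 3 against 3 libraries allow. Without Ybx1-KO 3 the log2 fold change was 0.93 and the groups did not overlap. In edgeR that fit gave an unadjusted p of 0.026 and an adjusted p of 0.356.

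Dhcr7 encodes the reductase of the last step to cholesterol and lies on chromosome 7 (143823145 to 143848410, plus strand). Its control libraries had 33.2, 53.4 and 45.8 CPM and its Ybx1-KO libraries 59.9, 103 and 41.3 CPM. Ybx1-KO 1 and 2 again exceeded all 3 controls, and Ybx1-KO 3 fell among them. With a standard error of 0.411 the log2 fold change was 0.63 (edgeR, adjusted p = 0.492). Without Ybx1-KO 3 it was 0.86 (edgeR, unadjusted p = 0.043, adjusted p = 0.419). In that fit 1246 of the 21330 genes passed an unadjusted p below 0.05 as higher in Ybx1-KO and 1184 as lower. Of the 7 genes, Srebf2 and Dhcr7 were the 2 that no longer overlapped when Ybx1-KO 3 was left out, both higher in Ybx1-KO, where 10.3% of all genes did so upward and 14.6% downward.

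The scaling of the libraries bore on the same pair of genes. Scaled to the total on genes in place of TMM, Srebf2 had 87.7, 108 and 103 CPM in the controls and 217, 149 and 130 CPM in Ybx1-KO 1, 2 and 3. Dhcr7 had 33.7, 48.5 and 42.4 CPM in the controls and 63.3, 75.6 and 62.2 CPM in Ybx1-KO libraries on that scale. Both genes then stood higher in all 3 Ybx1-KO libraries than in any control, as did 5.87% of all genes, while 5.26% stood lower in all 3. With TMM, 0 of the 7 genes were without overlap, against 4.99% of all genes upward and 8.17% downward. The part of Ybx1-KO 3 and of its TMM factor in these differences was not tested.

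Hmgcs1 encodes the cytosolic enzyme that makes HMG-CoA, an early step of the mevalonate arm. It had 172, 315 and 178 CPM in control libraries and 339, 179 and 160 CPM in Ybx1-KO libraries. In each group 1 library stood at nearly double the level of the rest, control 2 and Ybx1-KO 1, and the others lay close together. The means were 222 ± 80.9 CPM (SD, n = 3) and 226 ± 98.5 CPM (SD, n = 3), with a log2 fold change of 0.026 and a 95% interval from -0.95 to 1.00 (edgeR, adjusted p = 0.985). The sign of so small a value moved with the libraries, from -0.46 without Ybx1-KO 1 to 0.37 without control 2, with 0.22 without Ybx1-KO 3 on the genes tested in all 6 libraries. Its exons share 557 of 4594 bases with the antisense gene Gm48342, and because the strand setting of the counting is not given, reads of overlapping genes cannot be told apart here.

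Idi1 encodes the isomerase that balances the pair of isoprenoid building blocks. With 16.4, 21.9 and 17.1 CPM in control and 17.0, 12.0 and 20.0 CPM in Ybx1-KO libraries it was the least abundant of the 7. Idi1 had a log2 fold change of -0.18 (95% interval -1.04 to 0.68, adjusted p = 0.847 in edgeR), scaled to total counts it was 0.11, and without Ybx1-KO 3 it was -0.37. Idi1 held between 117 and 475 counts per library, and 323 of its 3505 exon bases overlap the antisense gene Gm48574.

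Fdft1 encodes squalene synthase, the first enzyme committed to sterols, and Sqle the squalene epoxidase that follows it. Fdft1 had 124, 179 and 249 CPM in control libraries and 168, 195 and 90.0 CPM in Ybx1-KO 1, 2 and 3. With TMM only Ybx1-KO 3 lay below all 3 controls, and the log2 fold change of -0.28 (95% interval -1.22 to 0.66, adjusted p = 0.772 in edgeR) shrank to -0.044 without it. On its minus strand Fdft1 shares 774 of 4227 exon bases with the antisense gene Ctsb. Sqle had 94.1, 163 and 170 CPM in control and 82.8, 169 and 85.9 CPM in Ybx1-KO libraries. With TMM, Ybx1-KO 1 and 3 were below every control and Ybx1-KO 2 was level with the 2 upper controls. Scaled to total counts, Ybx1-KO 3 lay among the controls for both genes, at 136 CPM for Fdft1 and 129 CPM for Sqle. The log2 fold change of Sqle was -0.34 (95% interval -1.25 to 0.58, adjusted p = 0.722 in edgeR), and -0.21 without Ybx1-KO 3.

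Insig1, on chromosome 5 (28071363 to 28078662, plus strand), encodes a retention protein for SREBP-2 and is itself one of the targets of that factor. It had 48.8, 66.6 and 68.1 CPM in control libraries and 34.7, 60.6 and 36.8 CPM in Ybx1-KO libraries. With TMM it was lowest in Ybx1-KO 1 and 3, and Ybx1-KO 2 lay among the controls. Scaled to total counts it had 49.6, 60.5 and 63.1 CPM in control and 36.7, 44.5 and 55.4 CPM in Ybx1-KO libraries, so that Ybx1-KO 1 and 2 lay below every control and Ybx1-KO 3 among them. The log2 fold change was -0.47, the lowest of the 7, with a 95% interval from -1.28 to 0.33 (edgeR, adjusted p = 0.557). The two-sided exact permutation test gave p = 0.2. In all 12 fits that left out a library the value stayed negative, from -0.85 to -0.35. Srebf2, in contrast, stayed positive in all 12, from 0.41 to 0.97, and Dhcr7 from 0.14 to 0.89.

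**Figure D2:**
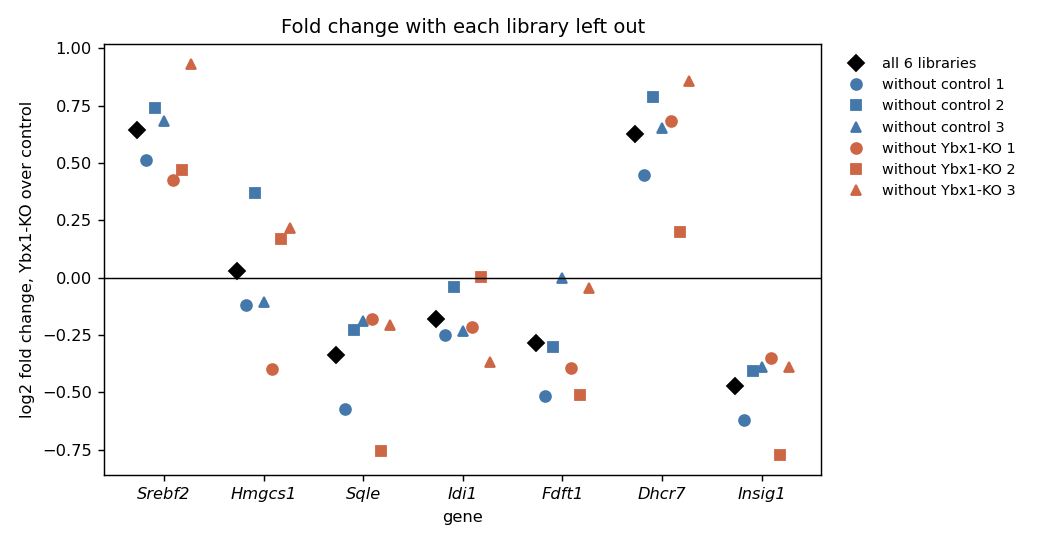
Log2 fold change of each of the 7 genes (vertical axis, Ybx1-KO over control, edgeR) with all 6 libraries and with each library left out, on the genes tested in all 6. The values of Srebf2 and Dhcr7 lay above 0 and those of Sqle and Insig1 below 0 throughout, while those of Hmgcs1 lay on both sides of 0, that of Idi1 reached 0 without Ybx1-KO 2 and that of Fdft1 came close to 0 without control 3 or Ybx1-KO 3.

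The 7 genes did not form a common profile over the libraries. Among the 21 pairs of genes, 13 had a positive correlation of log2 CPM over the 6 libraries, with a median r of 0.22, and without Ybx1-KO 3 the median was 0.079. Sqle and Insig1 were the most alike (r = 0.95 over 6 libraries, 0.94 without Ybx1-KO 3), followed by Srebf2 and Dhcr7 (r = 0.87 in each case). Idi1 ran against both Dhcr7 (r = -0.64) and Srebf2 (r = -0.57). These values describe 6 libraries that share depth and scaling and carry no test. Outside the 7, the protein-coding gene most like their mean profile was St8sia2, a polysialyltransferase of neural cells, with 88.5, 195 and 163 CPM in control and 150, 192 and 74.1 CPM in Ybx1-KO libraries (r = 0.998 over 6 libraries, 0.999 without Ybx1-KO 3). Spock1, Gfra2, Unc119b and 1700030K09Rik followed, with r from 0.982 to 0.994. Without Ybx1-KO 3 only St8sia2 of these 5 genes was still among the 5 most alike. In that order the others then ranked 7, 10, 20 and 9.

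Levels between genes were compared per kilobase of exon, as FPKM from the TMM-scaled libraries. In control NPCs the order was Hmgcs1 (48.3 ± 17.6 FPKM, SD, n = 3), Fdft1 (43.5 ± 14.9), Sqle (25.7 ± 7.58), Insig1 (19.8 ± 3.48), Srebf2 (14.7 ± 2.38), Dhcr7 (7.58 ± 1.75) and Idi1 (5.27 ± 0.848). The ranges over the 3 control libraries overlapped between each pair of neighbours in this order except Srebf2 and Dhcr7, whose lowest and highest values were 12.0 and 9.18 FPKM. In Ybx1-KO NPCs the levels were 49.2 ± 21.4 FPKM for Hmgcs1, 35.7 ± 12.9 for Fdft1, 22.9 ± 9.50 for Srebf2, 20.3 ± 8.85 for Sqle, 14.2 ± 4.65 for Insig1, 11.7 ± 5.43 for Dhcr7 and 4.65 ± 1.16 for Idi1 (SD, n = 3). The place of Srebf2 before Sqle in these means rested on Ybx1-KO 1, with 28.6 FPKM for Srebf2 and 14.9 for Sqle. In Ybx1-KO 2 (28.2 and 30.5 FPKM) and Ybx1-KO 3 (12.0 and 15.5 FPKM) Srebf2 stood below Sqle, as in all 3 controls. The summed TMM-normalized CPM of the 7 genes was 574, 918 and 840 in the control libraries and 907, 922 and 520 in the Ybx1-KO libraries, with control 1 and Ybx1-KO 3 the lowest. Scaled to total counts it was 583, 834 and 778 in control 1, 2 and 3 and 958, 677 and 783 in Ybx1-KO 1, 2 and 3, so the low place of Ybx1-KO 3 was not kept.

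Promoter sequence was available from RefSeq (GRCm38.p6) for 5 of the 7 genes, in 7 windows of 250 bases before to 50 bases after a start. Sqle and Fdft1 had none. The windows were searched on both strands for TCACNCCAC, a form of the sterol regulatory element to which SREBP-2 binds, for CCAAT, the core of the Y box, and for CCGCCC, the GC box. TCACNCCAC was found in 1 of the 7 windows, that of Hmgcs1, where it starts 137 bases before the start, against 1.24% of all 32851 windows. CCAAT was found in 5 of the 7 windows, against 37.41% of all, and CCGCCC in 6 of the 7, against 35.66%. Windows of 3 genes are shown because their log2 fold changes spanned the range of the 7, Srebf2 being the highest, Insig1 the lowest and Hmgcs1 near 0. All are plus-strand genes. Capitals mark TCACNCCAC and CCAAT, which reads ATTGG on the opposite strand.
Srebf2 (chr15:82147019-82147318): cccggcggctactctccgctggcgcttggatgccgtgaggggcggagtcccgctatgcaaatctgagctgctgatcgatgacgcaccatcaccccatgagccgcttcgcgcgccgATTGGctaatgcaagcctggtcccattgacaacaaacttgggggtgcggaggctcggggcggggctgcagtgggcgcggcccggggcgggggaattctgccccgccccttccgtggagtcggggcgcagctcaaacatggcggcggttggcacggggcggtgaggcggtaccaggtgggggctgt
Hmgcs1 (chr13:119690101-119690400): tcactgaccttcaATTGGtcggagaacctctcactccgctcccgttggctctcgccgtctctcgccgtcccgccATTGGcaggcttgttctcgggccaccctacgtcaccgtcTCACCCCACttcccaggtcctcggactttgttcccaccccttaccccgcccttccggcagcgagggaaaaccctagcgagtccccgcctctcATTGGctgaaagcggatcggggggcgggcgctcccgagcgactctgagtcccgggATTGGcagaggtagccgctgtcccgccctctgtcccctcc
Insig1 (chr5:28071162-28071461): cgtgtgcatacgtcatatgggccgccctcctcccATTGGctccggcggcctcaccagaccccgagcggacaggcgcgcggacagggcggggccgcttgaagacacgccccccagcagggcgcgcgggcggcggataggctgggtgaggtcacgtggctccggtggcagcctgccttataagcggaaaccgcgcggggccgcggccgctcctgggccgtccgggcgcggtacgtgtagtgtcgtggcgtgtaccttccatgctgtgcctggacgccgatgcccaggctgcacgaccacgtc
Hmgcs1 holds 4 CCAAT boxes around its sterol element, while Srebf2 and Insig1 hold 1 CCAAT box each and no exact sterol element. With 1 mismatch allowed, the sterol element was found in 4 of the 7 windows, among them those of Srebf2 and Insig1, and in 24.22% of all windows. These matches describe letters and were set beside no binding data here. CCAAT is also bound by the factor NF-Y, so its matches do not single out Ybx1.

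The rest of the pathway was read from 6 lists of 66 genes in all, the 7 included, of which 64 were tested. None was called by edgeR on the 21330 genes tested, and without the filter on low expression Apoe passed an adjusted p of 0.05 in edgeR (0.0155). At an unadjusted p below 0.05, 2 of the 64 were higher in Ybx1-KO and 4 lower (Ggps1, Rnf139, Vldlr and Apoe). The groups did not overlap at 5 genes upward and 6 downward, against 4.99% and 8.17% of all genes, and on total-count scaling at 6 upward and 3 downward, against 5.87% and 5.26%. Without Ybx1-KO 3 the counts were 11 upward and 7 downward, against 10.3% and 14.6%, so the larger count changed direction. Ggps1, Rnf139 and Vldlr were without overlap under TMM, relative log expression, upper-quartile and total-count scaling alike. The median log2 fold change of the 64 was 0.051, beside 0.31 for all genes, and without Ybx1-KO 3 it was 0.13, beside -0.066.

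**Figure D3:**
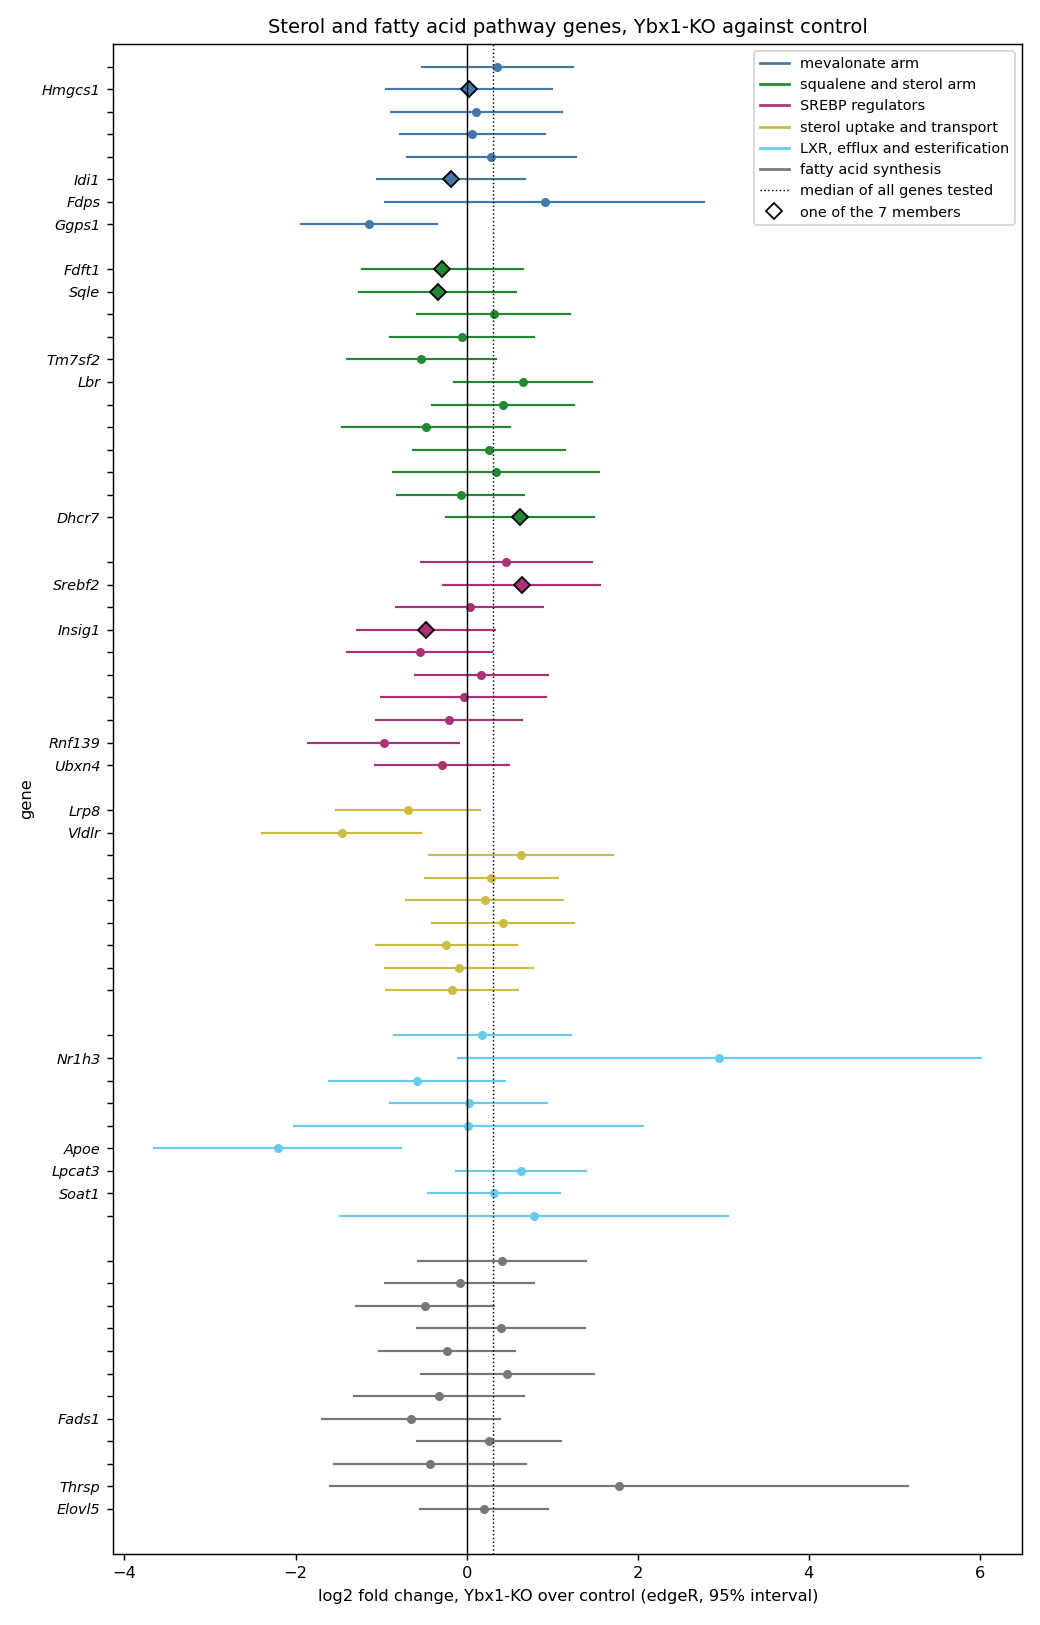
Log2 fold change, Ybx1-KO over control, of 60 of the 64 tested pathway genes in their 6 lists (points) with 95% intervals from edgeR (lines), with names for most genes described in the text. Diamonds mark the 7 genes, and the dotted line marks the median of all genes tested at 0.31. Most intervals include 0, and those of Ggps1, Rnf139, Vldlr and Apoe lie below it, before any adjustment.

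In the mevalonate arm, 7 of 9 genes had a positive and 2 a negative log2 fold change (median 0.066), and 1 was without overlap. Without Ybx1-KO 3 there were again 7 positive genes, with a median of 0.22. Ggps1, the synthase of geranylgeranyl pyrophosphate at the branch away from sterols, had 75.6, 91.1 and 58.1 CPM in control and 32.7, 41.4 and 27.6 CPM in Ybx1-KO libraries. Every Ybx1-KO library was well below every control library, with a log2 fold change of -1.14 (95% interval -1.94 to -0.35, adjusted p = 0.403 in edgeR). The value stayed between -1.38 and -0.97 when libraries were left out. Of its 4721 exon bases, 257 overlap the antisense gene Arid4b. Fdps, the farnesyl pyrophosphate synthase, had the highest value of the list at 0.91, with 1.13, 16.4 and 17.1 CPM in control and 6.25, 55.6 and 3.36 CPM in Ybx1-KO libraries. Its level thus rested on Ybx1-KO 2, without which the value was -1.32 (without Ybx1-KO 3 it was 1.38), and 1124 of its exon bases are shared with Gm43738 on the same strand, which makes its counts uncertain.

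In the squalene and sterol arm, 7 of 13 genes had a positive log2 fold change and 6 a negative one (median 0.26), and without Ybx1-KO 3 there were 8 positive genes (median 0.069). Lbr and Tm7sf2 encode enzymes for the same step, the reduction at C14 of the sterol ring, and the lamin B receptor Lbr also anchors chromatin to the nuclear envelope. Lbr had 30.6, 28.2 and 16.5 CPM in control and 47.0, 36.7 and 35.4 CPM in Ybx1-KO libraries (log2 fold change 0.66, adjusted p = 0.460 in edgeR). Tm7sf2 went the other way, with 18.2, 16.1 and 20.8 CPM in control and 10.7, 13.5 and 14.0 CPM in Ybx1-KO libraries (log2 fold change -0.53, adjusted p = 0.542 in edgeR). Neither was without overlap on total-count scaling, and both share exon bases with neighbours, Tm7sf2 with Vps51 on the same strand and Lbr with Dnah14 on the other.

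Among 10 regulators of SREBP processing, 4 had a positive and 6 a negative log2 fold change (median -0.12), Srebf2 being the highest. Without Ybx1-KO 3 the balance turned, with 6 of 10 positive and a median of 0.16. Rnf139, an endoplasmic reticulum ubiquitin ligase that binds Insig, was the lowest, with 41.7, 36.3 and 37.0 CPM in control and 30.1, 18.1 and 10.4 CPM in Ybx1-KO libraries. The controls lay close together and the Ybx1-KO libraries were spread over a wide range beneath them. Its log2 fold change was -0.97 (95% interval -1.85 to -0.085, adjusted p = 0.443 in edgeR). Without Ybx1-KO 3 it was -0.68, with an unadjusted p of 0.125 in edgeR. In Rnf139, 1140 of the 5110 exon bases overlap the antisense gene Tatdn1. Ubxn4, another gene of the degradation machinery of the endoplasmic reticulum, had 102, 94.9 and 92.9 CPM in control and 91.5, 80.7 and 65.2 CPM in Ybx1-KO libraries, a small difference without overlap (log2 fold change -0.29, adjusted p = 0.722 in edgeR) that did not hold on total-count scaling and was -0.19 without Ybx1-KO 3. Insig2 had a log2 fold change of -0.55 and Scap, the escort of SREBP-2, one of 0.036, which was 0.30 without Ybx1-KO 3.

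**Figure D4:**
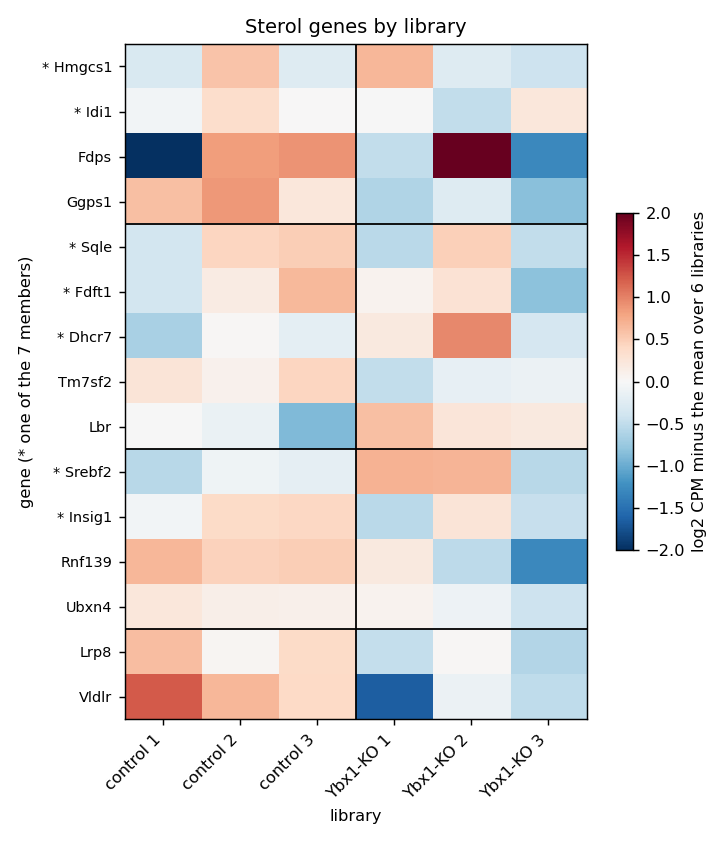
Log2 CPM minus its mean over the 6 libraries (colour, limited to -2 and 2) of 15 genes described in the text, from the mevalonate, sterol, SREBP regulator and uptake lists from top to bottom, in the 3 control and 3 Ybx1-KO libraries. Ggps1, Rnf139 and Vldlr are among the genes that divide the groups, the 7 genes (asterisks) do not, and Fdps varies most within each group.

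Among 11 genes of sterol uptake and transport, 6 had a positive and 5 a negative log2 fold change, with a median of 0.21, and without Ybx1-KO 3 there were 7 positive genes and a median of 0.43. Vldlr, a lipoprotein receptor on chromosome 19 (27216484 to 27254231), was the lowest and had 68.3, 45.9 and 38.1 CPM in control and 8.82, 26.5 and 20.0 CPM in Ybx1-KO libraries. It was lower in every Ybx1-KO library, with a log2 fold change of -1.46 (95% interval -2.39 to -0.53, adjusted p = 0.362 in edgeR) that ran from -1.92 to -1.15 as libraries were left out. Without Ybx1-KO 2 its adjusted p was 0.0122, or 0.0364 on the genes tested in all 6 libraries (edgeR). Lrp8, which with Vldlr is a receptor for reelin in neurons, had 188, 126 and 161 CPM in control and 88.4, 125 and 81.8 CPM in Ybx1-KO libraries (log2 fold change -0.69, adjusted p = 0.460 in edgeR), where control 2 and Ybx1-KO 2 nearly met. With relative log expression the groups overlapped, as they did on total-count scaling, with 123 CPM in Ybx1-KO 3 and 114 CPM in control 2.

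Among genes of the LXR pathway, sterol efflux and esterification, 9 of 11 were tested, Ch25h and Cyp27a1 lying below the filter, and 7 were positive and 2 negative (median 0.18). Without Ybx1-KO 3, 5 of the 9 were positive (median 0.061). Apoe, the main lipid carrier of the brain, was the lowest. It had 32.9, 2.81 and 23.7 CPM in control and 3.57, 3.58 and 5.74 CPM in Ybx1-KO libraries. Control 2 lay below all Ybx1-KO libraries, so the log2 fold change of -2.21 (95% interval -3.65 to -0.77, adjusted p = 0.378 in edgeR) rested on control 1 and 3. Without control 2 the value was -2.72 and its adjusted p 0.024 in edgeR. Among the controls the mesenchyme and meninges markers, like Apoe, were highest in control 1 and lowest in control 2. Over 8 genes they summed to 851, 127 and 215 CPM in control 1, 2 and 3. In Ybx1-KO 1, 2 and 3 they summed to 107, 137 and 66.9 CPM. Col3a1 was their most abundant gene in control 1, at 323 CPM, and none of the 8 was at 0 in any library. Of the 7 tested, all had a negative log2 fold change, 5 of them at an unadjusted p below 0.05, where 61.3% of all genes had a positive value and 4.27% passed as lower. The microglia and macrophage markers, 7 genes led by Csf1r in control, summed to 44.7, 10.7 and 17.4 CPM in control and 3.46, 6.64 and 40.2 CPM in Ybx1-KO libraries, with Aif1, Tyrobp, C1qa and C1qb at 0 in Ybx1-KO 1 and Ptprc and C1qb at 0 in Ybx1-KO 2. Among the controls, the progenitor markers Slc1a3 and Fabp7 were also highest in control 1 and lowest in control 2. The summed progenitor markers did not have that order. The part of all these markers in the Apoe values was not tested. Lpcat3, an LXR target that remodels phospholipids, had 26.3, 20.2 and 24.9 CPM in control and 42.0, 32.7 and 36.1 CPM in Ybx1-KO libraries (log2 fold change 0.63, adjusted p = 0.459 in edgeR). Soat1, which esterifies cholesterol, had 25.6, 25.9 and 19.5 CPM in control and 31.3, 27.7 and 29.7 CPM in Ybx1-KO libraries (log2 fold change 0.32, adjusted p = 0.686 in edgeR). Both were higher in every Ybx1-KO library by a margin that was lost on total-count scaling, and Lpcat3 shares 334 of its 3268 exon bases with the antisense gene Emg1. Nr1h3, which encodes LXR alpha, had the highest value of the list, 2.96, on 2 to 66 counts per library, and it was 1.35 without Ybx1-KO 3.

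The fatty acid genes, driven mainly by the sister factor SREBP-1, were divided evenly, with 6 of 12 positive and 6 negative and a median of 0.062. Without Ybx1-KO 3 there were 5 positive genes and the median was -0.085. Elovl5, an elongase of long fatty acids, was without overlap at 52.7, 62.3 and 58.1 CPM in control and 71.6, 63.8 and 64.2 CPM in Ybx1-KO libraries, with a log2 fold change of 0.20 (adjusted p = 0.795 in edgeR) that was not kept on total-count scaling. Fads1, the delta-5 desaturase, had the lowest value, -0.65 (adjusted p = 0.535 in edgeR), with 118, 218 and 195 CPM in control and 81.2, 203 and 55.5 CPM in Ybx1-KO libraries. Ybx1-KO 2 lay among the controls and the other Ybx1-KO libraries lay below them. Thrsp had the highest, 1.78, from 102 counts in Ybx1-KO 3 against 0 and 2 in the other Ybx1-KO libraries. Without Ybx1-KO 3 the values were -3.69 for Thrsp and -0.35 for Fads1.

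The remaining marker lists gave the other cells that the sort could hold. Oligodendrocyte and Schwann markers, 8 genes, summed to 88.5, 67.7 and 88.8 CPM in control and 59.6, 153 and 69.1 CPM in Ybx1-KO libraries. Sox10 stood at 93.9 CPM in Ybx1-KO 2. Endothelial markers, 7 genes, summed to 49.8, 23.2 and 26.1 CPM in control and 12.6, 16.3 and 61.6 CPM in Ybx1-KO libraries. Surface ectoderm markers, 6 genes, summed to 49.4, 20.96 and 68.2 CPM in control and 9.38, 19.2 and 42.1 CPM in Ybx1-KO libraries. Erythroid genes, 8 in all, summed to 1152, 624 and 472 CPM in control and 938, 276 and 161 CPM in Ybx1-KO libraries, with Hbb-bs the most abundant in control 1 and 3 and Hbb-y in the other libraries. The part of these cells in the values of the sterol genes was not tested.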

How the data were processed

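RNA-seq libraries of sorted NPCs, 3 control and 3 Ybx1-KO, were grouped by their genotype labels and numbered in order of accession. Read pairs were mapped and assigned to GENCODE genes with HTSeq 0.6.1p1, and the authors deposited raw counts per gene symbol for each library, without normalization or pooling. The submitters' processing notes name mm10 and GRCm38.p5. The aligner and the strand setting of the counting are not given in the sources used here, so counts of overlapping genes are uncertain. The tallies of read pairs outside genes were kept out of library sizes and tests.

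Exon lengths and coordinates came from GENCODE M21 (GRCm38), which covered 92.8% of the 51733 symbols. The 21330 genes whose mean FPKM passed 1 in control or Ybx1-KO NPCs were tested after TMM scaling by edgeR 4.0.16 quasi-likelihood fits in R 4.3.3, with p-values adjusted over all genes tested by the Benjamini-Hochberg method. The study used voom from limma, run here (version 3.58.1) as an alternative beside DESeq2 1.42.0, other scalings and filters, and leaving out each library. Intervals are 95% intervals of the edgeR fit. Correlations used log2 of CPM with 0.5 added. The edgeR, limma and DESeq2 code was tested on simulated data. Read pairs carry no molecular identifiers, so depth limits cover counting error only. Figures were drawn with matplotlib 3.10.9.

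The 7 genes and all lists were chosen with earlier results of these data known. Beyond the 7 genes and Ybx1, values were given for pathway genes without overlap between the groups, for the highest and lowest log2 fold change of each list, and for the 5 genes most like the 7. A few genes that these rules would name are not reported here. Insig2 and Scap were named after their values were seen.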

Additional observations from a re-analysis of the deposited data

Results flagged for a closer look

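Ybx1-KO 3 had 59.5% of its tallied read pairs outside genes, a share above the highest control library, control 1, with 46.7%. The share was 30.6% in Ybx1-KO 1 and 32.3% in Ybx1-KO 2, so it set this library apart from the rest of its group. In the same library Srebf2, Dhcr7, Hmgcs1 and Fdft1 had their lowest TMM-normalized CPM among the Ybx1-KO libraries, and its TMM factor was the highest of the 6. Scaled to total counts, the CPM in this library was again the lowest of its group for Srebf2, Dhcr7 and Fdft1 but not for Hmgcs1. Whether the reads outside genes bear on those levels was not tested.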

How the results depend on the processing

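No paired analysis was possible because the labels give no replicate number shared between the groups. Of 154 values of the 7 fold changes under another setting, 144 kept their direction and none passed an adjusted p of 0.05. The others changed sign. Hmgcs1 was -0.068 without a filter on low counts, and with libraries left out it ran from -0.46 to 0.37. Idi1 was 0.11 on total counts and ran from -0.37 to 0.000304 with libraries left out, and Fdft1 from -0.56 to 0.0015. The number of the 7 with a positive value was 2 without a filter and 4 on total counts, and it ran from 2 to 4 with libraries left out. Among other genes, Fdps ran from -1.32 to 1.40 and Thrsp from -3.69 to 2.37 with libraries left out, and Thrsp was -0.22 by limma-voom. Genes called higher and lower, 0 and 0 in edgeR, were 118 and 96 by DESeq2 and 113 and 80 without a filter. With libraries left out they ran from 0 to 531 and from 0 to 247, the highest being without Ybx1-KO 1 and without Ybx1-KO 2, and 17 and 283 were called higher in those fits on the genes tested in all 6. Without control 2 there were 29 higher and 44 lower, and without Ybx1-KO 3, on the genes tested in all 6, 27 and 19. The cause was not tested. Among the 64 pathway genes, Apoe passed an adjusted p of 0.05 without a filter, without control 2, without Ybx1-KO 1 and without Ybx1-KO 2, Rnf139 without Ybx1-KO 1 (-1.48) and Vldlr without Ybx1-KO 2. On the genes tested in all 6 libraries, Rnf139 without Ybx1-KO 1 (edgeR, adjusted p = 0.118) and Apoe without Ybx1-KO 1 (0.157) and without Ybx1-KO 2 (0.0836) did not pass, while Vldlr did, as did Apoe without control 2. A mean CPM above 1, a filter added after the data were seen, called 0 genes by edgeR, with 1238 higher and 809 lower at an unadjusted p below 0.05. The median log2 fold change of all genes was 0.51 on total counts, 0.40 with relative log expression, 0.38 with upper quartiles and 0.075 with CPM above 1 in 3 libraries, and that of the 7 stayed within 1 SD of the libraries' own spread in each setting. The 7 genes held 117 to 6839 counts per library, and the part of depth in the width of their intervals was not tested.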
